A study of Glycine max with 10 samples.

Results

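Whole soybean seeds (Glycine max, variety Evans, PI 548.560) at 30 days after flowering (DAF) were compared with seeds at 25 DAF, the first interval sampled in a time course of seed filling. The comparison rests on 4 of the 10 arrays of the series, 2 labelled 25 DAF and 2 labelled 30 DAF, and on all 37593 soybean probe sets of the Affymetrix array, chosen by label alone. The plants were untreated, of a single genotype and grown in a field near Ames, and pods were dated by tagging each flower when it opened. The labels call the 2 arrays of each time point biological replicates. By the study's methods each replicate pooled pods from several plants, and a few seeds of uniform size were picked from them for extraction. The p-values therefore measure the spread between such small pools of seeds, estimated over all 10 arrays and not at these 2 ages alone.

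Soybean seeds store protein and oil in the cotyledons of the embryo. During filling the embryo imports sugar and amino acids through the seed coat and packs glycinin and beta-conglycinin, the 11S and 7S globulins, into storage vacuoles. Late embryogenesis abundant (LEA) and other seed maturation proteins accumulate later and are known for protecting cells as the seed dries. Whole seeds were hybridised, so embryo and seed coat RNA were measured together, and fewer cells of a type cannot be told apart from less RNA per cell.

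The arrays carried the RNA of filling seeds. Globulins, Kunitz trypsin inhibitors and seed lipoxygenases were among the 40 brightest probe sets at 25 and 30 DAF, and FAD2-1A, the seed oleate desaturase, averaged 45883 at 25 DAF and 42444 at 30 DAF on its brighter probe set, on the scale that sets every array's median to 309.9. Seed coat genes were present, with Ep, the seed coat peroxidase, between 21480 and 30073 on the 4 arrays. Of the pod and leaf markers, the brightest probe set of VSPA, a vegetative storage protein, averaged 1543 at 25 DAF and 1613 at 30 DAF. Of 13 nodulin probe sets, 5 averaged 50 or more, and GLB3, the globin of that list, was at 11.2 to 22.8 on the 4 arrays. NOD33, also in that list, was at 17250 and 11324 on average. Lectin and oleosin matched no symbol and were not analysed here. Abundant means bright on the array throughout, since probe sets also differ in how strongly they bind.

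The 30 DAF replicates stood apart from each other on some seed coat genes, and this bears on every value below. SCB1, a BURP-domain protein of the seed coat, gave 18531 and 16010 at 25 DAF, but 847 in replicate 1 and 19958 in replicate 2 at 30 DAF. SSTP-1, a second seed coat gene of the list, gave 42900 and 42707 at 25 DAF, then 12881 and 39728 on its brighter probe set. Its other probe set, at 427 and 444, then 454 and 530, did not share the drop. SCB1 and the brighter SSTP-1 probe set were far below their 25 DAF signals at 40 DAF, where they averaged 111 and 1226. Replicate 1 of 30 DAF was the one on the side of the 40 DAF arrays for both of these probe sets. Across all probe sets the log2 signals of replicate 1 also correlated more closely with the 40 DAF arrays (r = 0.9017 and 0.8992) than those of replicate 2 did (r = 0.8932 and 0.8951). The replicates of 25 DAF correlated at 0.9271 and those of 30 DAF at 0.9254, and the pair of 25 DAF replicate 1 with 30 DAF replicate 2, at 0.9362, was closer than either. These correlations are over probe sets, which are not independent, and describe the arrays only.

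The interval was quiet. Only 4 of 37593 probe sets passed at an adjusted p under 0.05 (limma, Benjamini-Hochberg over all probe sets), which is 0.0106%, and all 4 were higher at 30 DAF. None was lower. At an unadjusted p under 0.05 there were 1028 probe sets, 561 higher (1.49%) and 467 lower (1.24%), together 2.73% of all. That count depended on the variance shared over the 10 arrays. With the 4 arrays of 25 and 30 DAF fitted alone it was 2139, and 3 probe sets passed the adjusted test. The same fit called 436 probe sets (1.16%) between 30 and 40 DAF, 255 higher (0.678%) and 181 lower (0.481%), 0 between 40 and 45 DAF (1096 at an unadjusted p under 0.05) and 11743 (31.2%) between 45 and 50 DAF. The count from 30 to 40 DAF was itself unstable: it was 0 with a prior variance without trend, 12 when replicate 2 at 30 DAF was left out and 164 when replicate 1 at that age was, and 91 with either 25 DAF array left out. The steps are of unequal length, with 5 days from 25 to 30 DAF and 10 days from 30 to 40 DAF. A direct test of whether a probe set's difference from 30 to 40 DAF departed from its difference from 25 to 30 DAF called 0 probe sets by limma, with 2090 at an unadjusted p under 0.05.

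**Figure D1:**
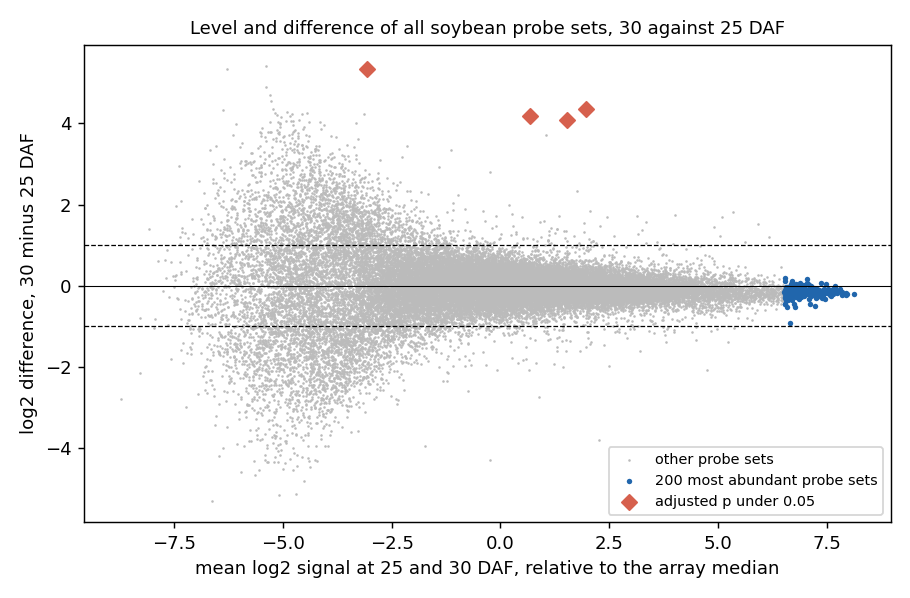
Mean log2 signal at 25 and 30 DAF relative to the array median (x axis) against the log2 difference between 30 and 25 DAF (y axis), 1 point per probe set, with dashed lines at a 2-fold difference. The 4 probe sets that passed the test (diamonds) lie above 4 on the y axis, the 200 most abundant (blue) lie within 1 of 0, and the spread widens where signals are low.

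The 4 probe sets that rose belonged to 2 gene models by the study's own assignment, and 3 of them belonged to 1. Gma.17489.1.S1_at and GmaAffx.89245.1.S1_s_at carry the symbol LOC100804226, and together with GmaAffx.87317.1.S1_s_at they are assigned to gene model Glyma14g05650.1, for which the tables used here give no function. The signal of Gma.17489.1.S1_at was 294 and 240.1 in the 25 DAF replicates and 8211 and 3639 in the 30 DAF replicates. It went from just under the array median to far above it, with no overlap. The rise was 20.6-fold (95% interval 11.8 to 35.8; log2 4.36, SE 0.35; limma adjusted p = 0.01028).

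The other probe sets of this gene model rose as well, although suffixes of the kind _s_at mark probes that can match more than 1 transcript, so the 3 are not separate genes. GmaAffx.87317.1.S1_s_at gave 222 and 211.4 at 25 DAF, then 5135 and 2667, a 17.1-fold rise (log2 4.09, SE 0.28; limma adjusted p = 0.004598). GmaAffx.89245.1.S1_s_at gave 124 and 109 at 25 DAF, then 3418 and 1302, an 18.1-fold rise (log2 4.18, SE 0.41; limma adjusted p = 0.0264). In all 3, replicate 1 was the higher of the 30 DAF pair. The gene model did not stop at 30 DAF. Between 30 and 40 DAF these probe sets rose again by 3.22, 3.30 and 3.90 on the log2 scale (limma adjusted p = 0.008666, 0.00297 and 0.008165, in the order Gma.17489.1.S1_at, GmaAffx.87317.1.S1_s_at, GmaAffx.89245.1.S1_s_at). At 50 DAF Gma.17489.1.S1_at averaged 80112.

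The fourth, GmaAffx.70622.1.S1_at, is assigned to gene model Glyma14g23280.1 and to the Arabidopsis locus AT2G37450, again with no function in the tables. Its signals were 4.97 and 6.86 at 25 DAF, under the value of 50 taken here as low, and 288 and 195 at 30 DAF. The log2 difference was 5.34 (SE 0.49, limma adjusted p = 0.01859), but a fold against signals this low depends on how the array software treats background, and with 50 added to every signal the log2 difference was 2.36 (limma adjusted p = 0.292). It averaged 361, 445 and 316 at 40, 45 and 50 DAF, and its log2 difference from 30 to 40 DAF, 0.61, did not pass (limma adjusted p = 0.6205). The difference between its steps, -4.74 on the log2 scale, did not pass (limma adjusted p = 0.3327).

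**Figure D2:**
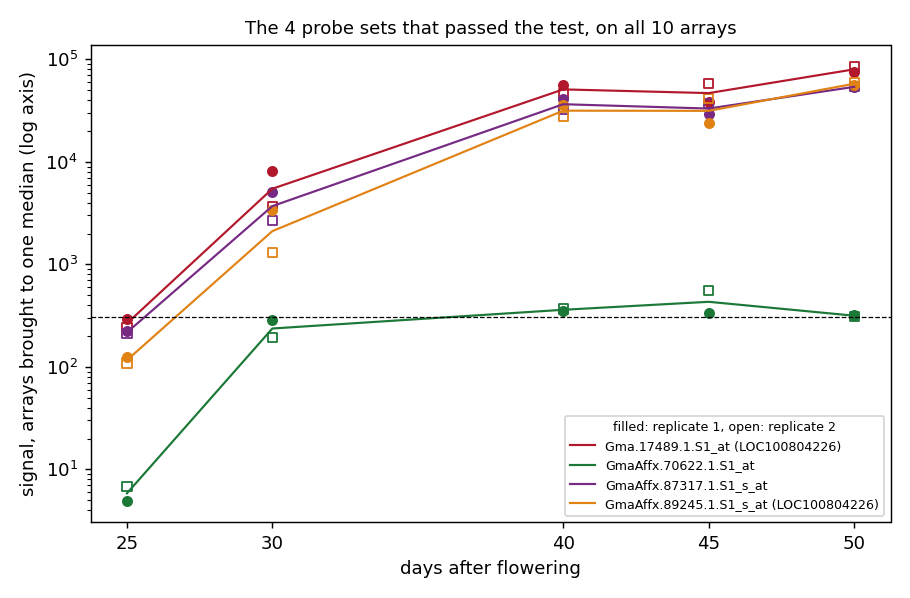
Signal of the 4 probe sets that passed the test on all 10 arrays, on a log axis against days after flowering, with filled circles for replicate 1, open squares for replicate 2, lines through the geometric means and a dashed line at the array median. The probe sets of Glyma14g05650.1 climb through 40 DAF, from 109 to 294 at 25 DAF, and GmaAffx.70622.1.S1_at levels off between 195 and 552 from 30 DAF on.

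These calls hang on few arrays. Without either 25 DAF replicate no probe set passed (lowest limma adjusted p = 0.246 without replicate 1 and 0.242 without replicate 2), although the log2 differences of the 4 stayed between 4.01 and 5.55. Without replicate 1 of 30 DAF only GmaAffx.87317.1.S1_s_at passed, at 3.63 on the log2 scale (limma adjusted p = 0.0359), and without replicate 2 the 3 probe sets of Glyma14g05650.1 passed.

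Below these, the next in rank did not pass. SEOC, named for sieve element occlusion in the phloem, was at 8.21 and 8.18 at 25 DAF and 205 and 115 at 30 DAF (log2 4.23, limma adjusted p = 0.1318), again from low signals. Gma.8215.2.S1_at, annotated by the study as a cytochrome P450, was at 219 and 188, then 902 and 526 (log2 1.77, limma adjusted p = 0.368). Neither pair of groups overlapped, but in these 4 arrays 15.9% of all probe sets had both 30 DAF signals above both 25 DAF signals and 19.8% had both below, so a lack of overlap singles out little. The one after these was on the lower side: GmaAffx.49992.1.S1_at, with no symbol, was at 69.5 and 68.5, then at low signals of 5.13 and 9.29 (log2 -3.32, 95% interval -4.60 to -2.04; limma adjusted p = 0.9999).

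The remaining named differences upward included 2 seed maturation genes. PM22, a seed maturation protein gene, was at 2841 and 2620 at 25 DAF and at 13292 and 6220 at 30 DAF (log2 1.74, 95% interval 0.85 to 2.62; limma adjusted p = 0.9999). PM31, another of the series of seed maturation genes, was at 10526 and 11484, then 45732 and 22046 (log2 1.53, 95% interval 0.88 to 2.18). LOC100500475, annotated by the study as a small heat shock protein of the HSP20 family, was at 6322 and 4997, then 21483 and 10949 (log2 1.45), and rose by 1.82 in the following step (limma adjusted p = 0.02747). The rule that picked these 3 genes required the 30 DAF arrays to lie wholly above the 25 DAF arrays. In each, replicate 1 of 30 DAF was about 2-fold above replicate 2.

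The pattern was wider for 2 genes whose 25 DAF replicates also differed. PRP2, a proline-rich protein of the cell wall, was at 4248 and 10502 at 25 DAF and 37984 and 14771 at 30 DAF on its brighter probe set (log2 1.83, 95% interval 0.72 to 2.93), and a second probe set of PRP2 gave 1.71. BG7S-2, a basic 7S globulin, was at 1030 and 2242, then 8827 and 2812 (log2 1.71, 95% interval 0.56 to 2.87), and rose by 3.55 from 30 to 40 DAF (limma adjusted p = 0.01839). GmaAffx.48565.1.S1_at, annotated as a short-chain dehydrogenase or reductase, differed by 1.24. None of these 8 probe sets passed between 25 and 30 DAF, the lowest limma adjusted p being 0.368.

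None of the 12 probe sets named on the lower side by the same rule passed (limma adjusted p = 0.9999 for each). PAL2.1, a phenylalanine ammonia-lyase at the entry of phenylpropanoid synthesis, had the tightest replicates, with 6283 and 6360 at 25 DAF and 2721 and 3395 at 30 DAF (log2 -1.06, 95% interval -1.53 to -0.59). The next brightest probe set assigned to PAL2.1 did not share this, with a log2 difference of 0.12. LOC100804565, annotated as a short-chain dehydrogenase or reductase, was at 5925 and 8836, then 3225 and 3547 (log2 -1.10), and fell by 2.06 from 30 to 40 DAF (limma adjusted p = 0.0299). HSF-08, a heat shock transcription factor, was at 1839 and 2084, then 596 and 1093 (log2 -1.28), with a second probe set at -1.08.

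EN1 had the widest difference downward among them, from 317 and 391 to 58.9 and 136 (log2 -1.97), and by 50 DAF it averaged 2388. ALDH2B4, an aldehyde dehydrogenase, was at 1300 and 1095, then 308 and 790 (log2 -1.28). The other 6, among them STV2B and probe sets annotated as a NUDC nuclear movement protein and a Ras-related GTPase, lay between -0.84 and -0.79. Replicate 1 of 30 DAF was further from the 25 DAF mean than replicate 2 in 12 of the 12 named probe sets on the higher side, the 4 that passed included, and in 11 of the 12 on the lower side. These probe sets were picked for large differences, several share a gene, and the same share over all probe sets was not counted. The part of replicate 1 of 30 DAF in these differences was not tested.

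**Figure D3:**
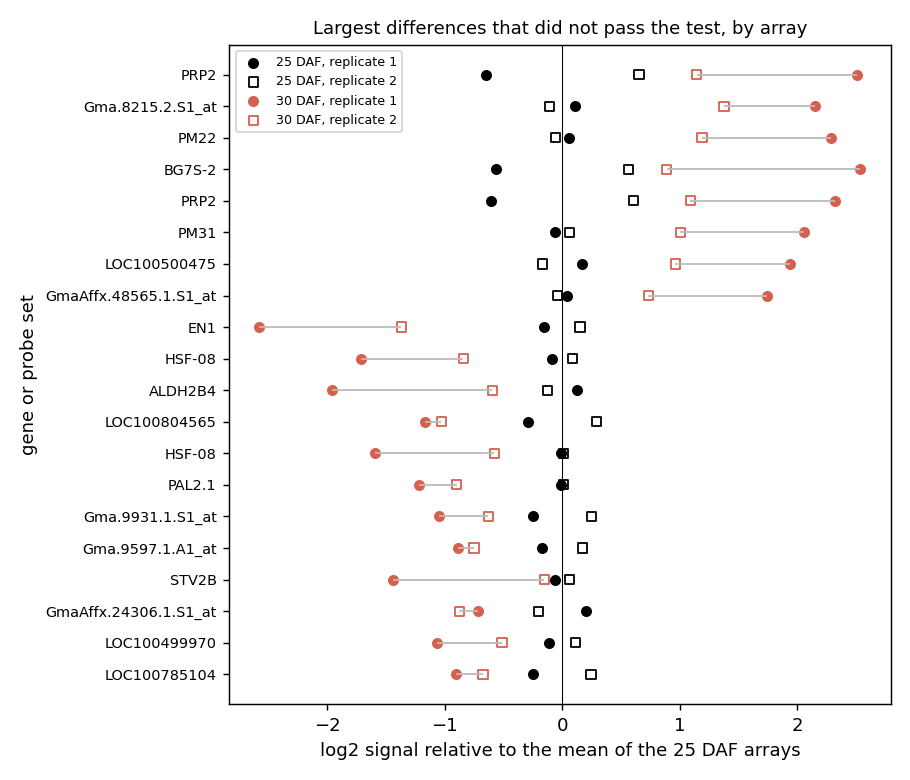
Log2 signal of the 20 named probe sets that did not pass the test, relative to the mean of the 25 DAF arrays (x axis), with black symbols for 25 DAF, red for 30 DAF, filled circles for replicate 1 and open squares for replicate 2. The red circles lie further from 0 than the red squares in 19 of the 20, and the gray line joins the 30 DAF replicates.

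The abundant seed transcripts mostly stayed within a 2-fold bound. Of the 200 probe sets with the highest mean signal over the 4 arrays, none passed the test and none had an unadjusted p under 0.05, and in 185 (92.5%) the whole 95% interval of the log2 difference lay between -1 and 1, that is within 2-fold. Over all probe sets that share was 36.6%, and over the 18748 at or above the array median it was 69.2%, so signal level by itself goes with part of the share. Among the 50 brightest it was 98%. P34, the brightest, averaged between 69179 and 98557 at all 5 time points, and how near such signals lie to the top of the scanner's range was not tested, so the bound holds for the signals as deposited. The median difference of the 200 was -0.15 on the log2 scale, against -0.03 over all probe sets. That small offset has no settled sign, since it was -0.01 after quantile normalisation and 0.03 without replicate 2 of 25 DAF. A tighter bound was beyond the arrays: 41 of the 200 stayed within 1.5-fold, with a median SE of 0.23.

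Storage globulins were among them. GY1, a glycinin, was at 68594 and 98000 at 25 DAF and 81515 and 64394 at 30 DAF (log2 -0.18, 95% interval -0.80 to 0.44), so the time points overlapped and the 25 DAF replicates differed more than the means did. GY5 (log2 -0.14), GY2 (-0.15) and CG-BETA-1, a beta-conglycinin (-0.07), were likewise within 2-fold. Of 13 globulin probe sets 8 held within 2-fold (61.5%, against 69.2% of all probe sets at or above the array median). The median of the 13 was -0.14. GY3, another glycinin, did not meet the bound (log2 0.18, 95% interval -1.10 to 1.46), nor did BG7S-2, described above. Without replicate 1 of 25 DAF the list's median was -0.40 and without replicate 2 it was 0.21.

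Other seed protein genes held too. P34, a soybean allergen of the protein storage vacuole, was the brightest of all, at 84241 and 103203, then 87615 and 74292 (log2 -0.21, 95% interval -0.74 to 0.32). LOX2 (-0.17), LOX3 (-0.00) and LOX1.1 (-0.15), the seed lipoxygenases, GM2S-1, a 2S albumin (-0.22), and A1, albumin-1 (-0.08), also held. In that list of 14, 11 held within 2-fold (78.6%, against 69.2% of all probe sets at or above the array median). SBP65, a biotin-carrying seed protein, was an exception with 2597 and 3191, then 9397 and 3197 (log2 0.93, 95% interval -0.31 to 2.16).

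Among protease inhibitors, KTI1 and KTI3, Kunitz trypsin inhibitors, and D-II and BBI, Bowman-Birk inhibitors, differed by -0.07, -0.15, -0.15 and 0.03, and all 4 held within 2-fold. KTI-2, another Kunitz member, was at 24342 and 24480, then 14996 and 21034 (log2 -0.46, 95% interval -0.98 to 0.06), and held narrowly. The 2 probe sets of KTI-3, also of the Kunitz family, did not meet the bound, the brighter at 13193 and 13313, then 7077 and 10781 (log2 -0.60, 95% interval -1.62 to 0.41). Of 11 probe sets 6 held (54.5%, against 36.6% of all probe sets), with a median of -0.24. None passed the test in either direction.

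**Figure D4:**
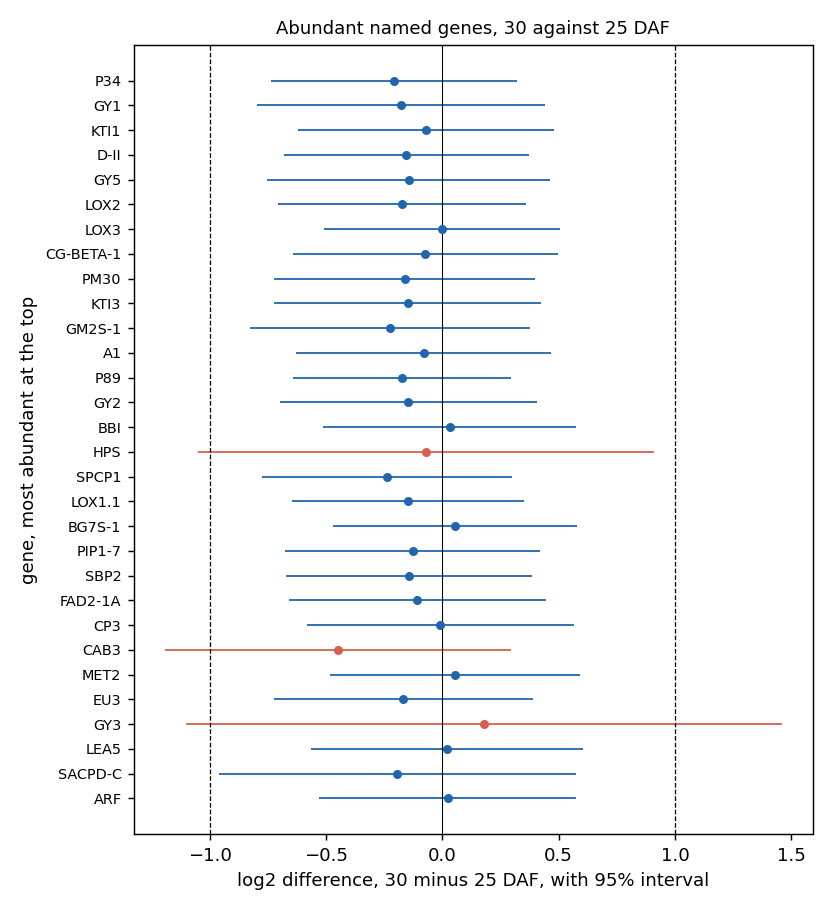
Log2 difference between 30 and 25 DAF with its 95% interval for the 30 most abundant genes that have a name, brightest at the top, 1 probe set per gene, with dashed lines at a 2-fold difference. Blue intervals lie wholly inside the lines and red ones (HPS, CAB3 and GY3) cross at least 1 of them.

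Genes of fatty acid synthesis and desaturation mostly held within the bound, as did most probe sets at or above the array median. Most of the lipid assembly list did not meet the bound. SACPD-C, a stearoyl-ACP desaturase that makes oleate, differed by -0.19 (95% interval -0.96 to 0.57), and both bright probe sets of FAD2-1A, which turns oleate to linoleate, differed by -0.11 and -0.00. FAD3B, a linoleate desaturase, was at 4761 and 5290, then 3887 and 5871 (log2 -0.07). Of 14 probe sets for fatty acid synthesis 11 held within 2-fold (78.6%) and of 13 desaturase probe sets 8 did (61.5%). Among all probe sets at or above the array median 69.2% held. ACCC-2 and ACCC-3, biotin carboxylase subunits of plastid acetyl-CoA carboxylase, had the lowest values of the bright members (-0.41 and -0.56), and neither passed. From 30 to 40 DAF ACCC-2 fell by 1.44 (limma adjusted p = 0.01665). In the list of lipid assembly 5 of 14 held (35.7%, against 36.6% of all probe sets), and the median was -0.35. The differences of this list ran from -1.94 to 0.33, with DGAT1A, which makes triacylglycerol, at 0.09. None passed.

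Carbohydrate genes included SS, a sucrose synthase, at 28008 and 36994, then 26491 and 32627 (log2 -0.13), and SWEET24, a sugar transporter, at -0.07. BMY1, a beta-amylase (LOC547931), was at 48983 and 54862, then 51766 and 44588 (log2 -0.11), and GBSSIa, the granule-bound starch synthase, differed by -0.21 (95% interval -1.06 to 0.64). In that list 12 of 31 probe sets held within 2-fold (38.7%, against 36.6% of all probe sets). CIF1, an inhibitor of invertase, was the bright member furthest from 0, with 1031 and 884, then 309 and 628 (log2 -1.12, 95% interval -2.44 to 0.21). Among 41 probe sets of glycolysis and sugar phosphate enzymes 23 held (56.1%), GAPC1, a glyceraldehyde-3-phosphate dehydrogenase, at -0.01. Housekeeping genes had 44 of 63 probe sets within 2-fold (69.8%) and a median of -0.13. Among all probe sets at or above the array median 69.2% held.

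In nitrogen assimilation 13 of 37 probe sets held (35.1%, against 36.6% of all probe sets). The median was 0.18, or -0.01 with 1 probe set per gene. ASP1, an asparaginase, which releases ammonia from imported asparagine, was at 11839 and 9632, then 14682 and 11709 (log2 0.30, 95% interval -0.28 to 0.87). No member passed the test.

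LEA and seed maturation genes were mixed. The brightest held within 2-fold, where PM30 differed by -0.16, LEA5 by 0.02 and PM12 by -0.12. Besides PM22 and PM31, PM28 was at 2685 and 2507, then 7522 and 4021 (log2 1.08), PM13 was at 1154 and 1082, then 2933 and 1608 (log2 0.96), and SLE2, an Em-type LEA gene, was at 75.6 and 66.1, then 336 and 186 (log2 1.82). These are the 5 of 44 probe sets (11.4%) with an unadjusted p under 0.05, all higher, against 2.73% of all probe sets. None passed the adjusted test. In the following step 10 of the 44 rose and none fell, against 0.678% of all probe sets higher and 0.481% lower. SLE2 rose by 6.34 (limma adjusted p = 0.004033) and PM13 by 4.20 (limma adjusted p = 0.003652). The median of the list, 0.29, rested on replicate 1 of 30 DAF: it was -0.09 without that array and 0.66 without replicate 2.

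The brightest green tissue genes gave values below 0 that did not pass. CAB3, a light-harvesting chlorophyll-binding protein, was at 45849 and 54626, then 34981 and 38478 (log2 -0.45, 95% interval -1.19 to 0.30), and fell by 1.96 from 30 to 40 DAF (limma adjusted p = 0.03253). LHCP (LOC547819), of the same family, was at 9070 and 9702, then 5151 and 7904 (log2 -0.56), and fell by 3.58 in the next step (limma adjusted p = 0.002278). PSAD, a photosystem I subunit, held within 2-fold (log2 -0.10). Of 25 photosynthesis probe sets 8 held (32%, against 36.6% of all probe sets) and the median was -0.18. Between 30 and 40 DAF 5 of the 25 fell, against 0.481% of all probe sets. HEMB, an early enzyme of chlorophyll synthesis, was at 2797 and 3119, then 1789 and 2298 (log2 -0.54, limma adjusted p = 0.9999).

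Heat shock genes had the lowest list median, -0.44, but the list is weighted by probe sets of HSP90-1, a cytosolic chaperone, and with 1 probe set per gene the median was -0.03. The brightest HSP90-1 probe set was at 15880 and 16610, then 8598 and 13839 (log2 -0.57, 95% interval -1.12 to -0.03), replicate 1 again the lower. Of 34 probe sets 7 had an unadjusted p under 0.05 on the lower side and 1 on the higher, HSF-14 (log2 0.86). Over all probe sets the shares were 1.24% lower and 1.49% higher. No probe set of the list passed the adjusted test.

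PCNA (LOC548079), the sliding clamp of DNA replication, was at 3349 and 3695 at 25 DAF, and at 2009 in replicate 1 and 4646 in replicate 2 at 30 DAF (log2 -0.20, 95% interval -1.11 to 0.70). Only 1 of 12 probe sets in the cell cycle list held within 2-fold (8.33%, against 36.6% of all probe sets). The median over probe sets was -0.27, and with 1 probe set per gene it was -0.50. The median over probe sets was 0.02 without replicate 1 of 30 DAF and -0.65 without replicate 2. XTH1, a xyloglucan endotransglucosylase of the growing cell wall, was at 939 and 606, then 1728 and 1408 (log2 1.05, limma adjusted p = 0.9999). It fell by 2.28 from 30 to 40 DAF (limma adjusted p = 0.03902). The list of expansins and cell wall genes had a median of 0.03, and 14 of 32 probe sets held (43.8%, against 36.6% of all). In that list 3 had an unadjusted p under 0.05 (9.38%, against 2.73% of all), each higher, and none passed.

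Phenolic pathways gave little. IFR2, named for isoflavone reductase, was the brightest of the flavonoid list, at 27006 and 28544, then 23911 and 22227 (log2 -0.27). ANS2, an anthocyanidin synthase, was at 495 and 284, then 990.3 and 664 (log2 1.11, limma adjusted p = 0.9999). Of 61 probe sets in the flavonoid list 16 held (26.2%, against 36.6% of all probe sets) and none passed. Between 30 and 40 DAF 9 of them rose, against 0.678% of all probe sets.

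Among regulators, MFT, of the family of FT and TFL1, held at 34726 and 38926, then 38968 and 35362 (log2 0.01, 95% interval -0.46 to 0.49). LEC1-A, a factor of embryo identity and filling, was at 3406 and 3363, then 3383 and 3783 (log2 0.08), and WRI1B, of the WRINKLED1 family known in Arabidopsis for driving fatty acid synthesis, differed by -0.37. WRKY51 was higher on 3 of its probe sets at an unadjusted p under 0.05, the brightest at 1354 and 1365, then 3549 and 1798 (log2 0.89, 95% interval 0.23 to 1.55). In the WRKY list 5 of 104 probe sets were higher and 3 lower at that p (7.69% together, against 2.73% of all). NAC14 was at 2898 and 2779, then 5079 and 3433 (log2 0.56). The NAC list had a median of -0.21, with 1 of 41 probe sets higher and 2 lower at that p (7.32% together). No probe set of the MYB (111), bZIP (94), NAC (41), WRKY (104) or AP2, ERF and DREB (23) lists passed.

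Water channels and GASA peptides had bright members that held, as most bright probe sets did. SPCP1, whose synonyms name it a tonoplast aquaporin, differed by -0.24 (95% interval -0.78 to 0.30) and PIP1-7, of the plasma membrane, by -0.13. Of 46 aquaporin probe sets 20 held (43.5%, against 36.6% of all probe sets). An unadjusted p under 0.05 was found for 2 (4.35%, against 2.73% of all), both lower. GASA27, a small cysteine-rich peptide gene of the gibberellin-responsive family, differed by -0.17. Of 20 GASA probe sets 6 held (30%), a share below that of all probe sets.

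Of the 6 seed coat probe sets 2 held within 2-fold (33.3%, against 36.6% of all probe sets). The differences of the 6 ran from -2.07 to 0.17. HPS, a hydrophobic protein of the seed surface, was at 49454 and 61731, then 57078 and 48536, but its interval, -1.05 to 0.91 around -0.07, crossed the 2-fold bound. SSTP-1 differed by -0.92 (95% interval -2.42 to 0.58) on its brighter probe set and by 0.17 on the other, which held. SCB1 differed by -2.07 (95% interval -4.89 to 0.75). The differences of SCB1 and the brighter SSTP-1 probe set came through replicate 1 of 30 DAF. Ep was the bright exception, at 28650 and 21480, then 30073 and 25900 (log2 0.17, 95% interval -0.25 to 0.59).

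**Figure D5:**
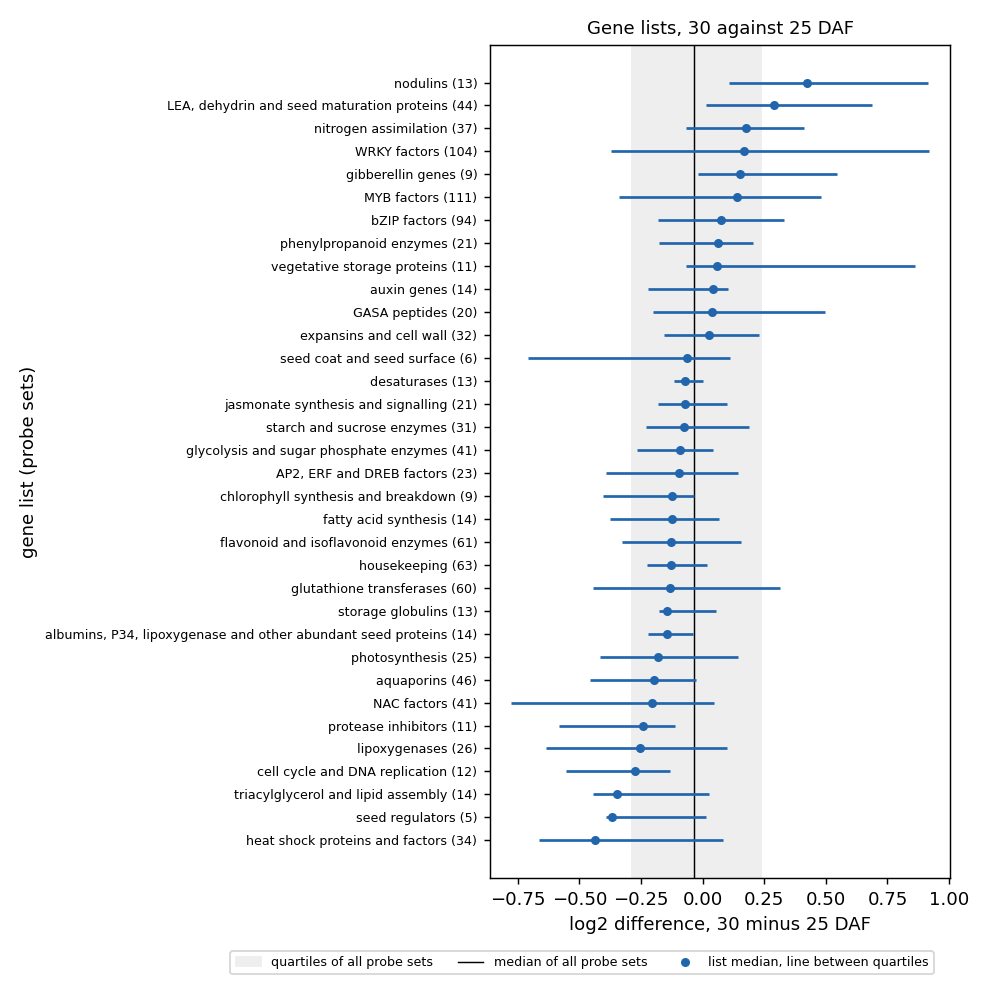
Median log2 difference between 30 and 25 DAF of each of the 34 gene lists (points) with the line between its quartiles, list sizes in brackets, beside the median (black line, -0.03) and quartiles (gray, -0.29 to 0.24) of all probe sets. List medians run from -0.44 for heat shock genes to 0.42 for nodulins, most of which were at low signals, and no list member passed the test.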

How the data were processed

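Evans seeds were profiled on the Affymetrix soybean array at 5 time points with 2 replicates each. The authors deposited MAS5 signals, linear intensity values per probe set, with each array scaled to a common mean according to the study's methods. Over the soybean probe sets the array means were 1344.3 to 1425.5. Detection calls and scanner files were not used here, and 2 arrays per time point limit the precision. The log2 signals of the 37593 soybean probe sets had their array's median subtracted (medians 220.8 to 325.2 before log2). For display they were rescaled to a median of 309.9, and below 50 they are called low.

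limma 3.58.1 (R 4.3.3) was fitted with time point and, as in the study's methods, replicate number, over all 10 arrays (residual df 4, prior df 5.08, eBayes with trend). P-values were two-sided. The 45 DAF arrays had the widest replicate spread (median SD 0.4228, against 0.2266 and 0.2507 at 25 and 30 DAF) and enter the shared variance. Replicate numbers are only numbers: deviations correlated at -0.0336 to 0.0302 between time points. The labels give 40 DAF where passages of the study's text name another day, and the labels were followed. The steps share arrays. The fit was tested on simulated data.

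Of the probe sets, 8677 had 1 symbol, 370 had more than 1 and 28546 were unnamed. RefSeq records (Glycine_max_v4.0) and the names and gene models of the study's supplementary table, not its values, completed these. Lists were built from symbols and synonyms. Named probe sets were all those called, each direction filled to 12 with the largest differences having an informative name, an unadjusted p under 0.05, no overlap and a higher group at or above the array median, then the named among the 40 brightest and up to 6 members per list. XTH1, ANS2, CIF1, SBP65, LOX1.1, PM13, PM28, SLE2, HSF-14, SEOC and the probe sets next in rank after the 4 called were chosen after their values were seen. The comparison, the gene lists and the rule were chosen with earlier results of these data known.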

Additional observations from a re-analysis of the deposited data

How the results depend on the processing

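The 4 calls between 25 and 30 DAF came to 5 without the replicate block, 3 with the 4 arrays of 25 and 30 DAF alone, 4 after quantile normalisation, 4 without centring, 3 with a robust prior, 3 with probe sets at or above the median only and 3 with a pseudocount of 50. They came to 0 with a prior variance without trend (lowest adjusted p 0.32, with 1308 at an unadjusted p under 0.05), 1 at an adjusted p under 0.01, and 1028 at an unadjusted p under 0.05. The calls among the named genes were likewise 0 without the trend. At an unadjusted p under 0.05 the 4 arrays of 25 and 30 DAF alone gave 2139 probe sets. Leaving out 1 array gave 0 to 3 calls, for the named genes too, and there the lone array is assumed to vary like the others. All settings kept the sign of the 4, at log2 2.36 to 5.77.

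The share of the 200 most abundant probe sets held within 2-fold was 92.5% without the replicate block, 83.5% to 97% under the other models and scalings, and 52.5% to 86% leaving out 1 array, lowest without replicate 1 of 25 DAF. It was 20.5% for a bound of 1.5-fold. No list member passed under any setting tried, and no called value changed sign. The calls from 30 to 40 DAF went from 436 to 667 without the replicate block, 761 with the pseudocount, 0 without the trend and 12 to 164 leaving out 1 array, and those from 45 to 50 DAF from 11743 to between 8228 and 12407. With 2 arrays a group, no outlying sample within a time point could be tested for.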
